A study of Mus musculus with 10 samples.

Results

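In 10 hearts of *Rit1* M90I/+ mice, 9 genes that mark the atria or the ventricles were followed. They are 7 atrial genes (*Sln*, *Myl4*, *Myl7*, *Bmp10*, *Dkk3*, *Stard10* and *Nr2f2*) and 2 ventricular genes (*Irx4* and *Hey2*), taken by gene name from a table of 54532 genes in which each of the 9 names occurs once. They were picked with their FPKM (fragments scaled to gene length and to a size set for each library) in these same hearts already known. The way they vary from heart to heart is therefore given as a description and carries no test. All mice carried 1 M90I allele of *Rit1*, a RAS-related GTPase. The allele came from a conditional line crossed to a cytomegalovirus-Cre deleter, so it was not confined to heart muscle. From 4 weeks of age, mice received vehicle (5 hearts) or the MEK1/MEK2 inhibitor trametinib (MEKi) at 1 mg/kg once a day (5 hearts) for 20 weeks. Male and female littermates entered the study, all mice were mutant, and the labels call the sample heart tissue without naming a chamber.

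Atrial and ventricular myocytes build the same contractile machine from different parts. The sarcomere of the atria uses its own pair of myosin light chains, MYL7 (regulatory) and MYL4 (essential), where the ventricles use MYL2 and MYL3. Sarcolipin, the product of *Sln*, restrains the calcium pump SERCA in the atria as phospholamban (*Pln*) does mainly in the ventricles. Chamber identity is held by transcription factors, among them NR2F2 in atrial and IRX4 and HEY2 in ventricular myocytes. In GRCm38 coordinates, the atrial genes are *Sln* (chr9:53850164-53854560), *Myl4* (chr11:104550663-104595753), *Myl7* (chr11:5896637-5898782), *Bmp10* (chr6:87428994-87437677), *Dkk3* (chr7:112116017-112159057), *Stard10* (chr7:101317086-101346626) and *Nr2f2* (chr7:70351944-70366735). The ventricular genes are *Irx4* (chr13:73260479-73269608) and *Hey2* (chr10:30832359-30842801). In bulk tissue, fewer cells of a type and less RNA per cell cannot be told apart.

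The coding sequence of *Sln* shows how small the transcript's product is and is printed because *Sln* varied more than any other gene tested. It lies on chromosome 9 of GRCm38 (chr9:53853473-53853568, plus strand), within 1 of the gene's 2 exons, and holds 31 codons before the stop. Start and stop codons are in capitals, and the sequence is that of GENCODE M21.
Sln coding sequence: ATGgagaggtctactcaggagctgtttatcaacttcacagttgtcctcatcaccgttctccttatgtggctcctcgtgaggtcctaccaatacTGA
Promoter windows, from 250 bases before to 50 bases after the annotated start, were matched in RefSeq (GRCm38.p6) for 7 of the 9 genes. Those of *Myl7* (chr11:5898733-5899032, minus strand), *Myl4* (chr11:104550413-104550712, plus strand) and *Bmp10* (chr6:87428744-87429043, plus strand) are shown, since *Myl7* and *Myl4* varied together and *Bmp10* parted from them in 2 hearts. Capitals mark motif matches.
Myl7 promoter: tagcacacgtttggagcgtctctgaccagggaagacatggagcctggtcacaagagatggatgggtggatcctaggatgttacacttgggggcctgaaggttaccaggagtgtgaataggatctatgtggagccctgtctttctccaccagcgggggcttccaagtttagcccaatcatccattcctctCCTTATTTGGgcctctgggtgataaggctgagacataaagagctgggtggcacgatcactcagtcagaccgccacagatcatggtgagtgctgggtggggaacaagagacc
Myl4 promoter: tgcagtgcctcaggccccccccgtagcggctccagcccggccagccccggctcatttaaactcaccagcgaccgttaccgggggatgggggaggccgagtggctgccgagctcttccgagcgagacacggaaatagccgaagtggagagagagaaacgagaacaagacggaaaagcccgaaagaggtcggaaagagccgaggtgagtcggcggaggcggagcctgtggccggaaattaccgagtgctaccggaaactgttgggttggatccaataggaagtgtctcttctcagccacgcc
Bmp10 promoter: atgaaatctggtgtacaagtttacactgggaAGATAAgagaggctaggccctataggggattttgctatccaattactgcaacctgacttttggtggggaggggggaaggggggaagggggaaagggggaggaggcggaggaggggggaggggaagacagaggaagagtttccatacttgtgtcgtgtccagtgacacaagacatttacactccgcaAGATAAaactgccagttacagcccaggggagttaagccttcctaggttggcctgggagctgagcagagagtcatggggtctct
The 7 windows were searched on both strands for AGATAA as the motif of GATA factors, AGGTGT as that of T-box factors, AGGTCA as the half-site of nuclear receptors and CACGTG as the E-box of Hes and Hey factors, for MEF2, and for the CArG box, a motif added after the windows had been read. *Myl7* held 1 CArG box, 61 bases before its start, where 1.63% of the 32851 windows of this length hold one. *Bmp10* held the GATA letters at 219 and 33 bases before its start, and 11.2% of windows hold them at least once. The other 5 windows held none of these letters. Over all windows, the MEF2 letters, with their middle bases left free, were found in 3.69%. The T-box letters were found in 13.7%, the nuclear receptor half-site in 16.3% and the E-box in 7.15%. The motifs do not overlap one another in these windows, and a match is a description of the letters, not of a bound site.

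Depth was similar in both groups, from 13647167 to 16659254 fragments per vehicle heart and from 14868373 to 18474002 per MEKi heart. Fragments were recovered from FPKM and gene length, and 100% of the values came out whole within 0.01 fragments. Cardiomyocyte transcripts were abundant in every heart, and the summed level of *Myh6*, *Actc1*, *Tnnt2*, *Tnni3* and *Ryr2* ran from 9834 to 12300 FPKM with vehicle and from 9224 to 12926 FPKM with MEKi. *Xist*, from the inactive X chromosome, was at 5.16 to 6.85 FPKM in MEKi hearts and did not exceed 0.00662 FPKM with vehicle. The Y-linked *Ddx3y* was at 10.3 to 12.2 FPKM in vehicle hearts and at 0 in MEKi hearts. Read by these transcripts, every vehicle heart was male and every MEKi heart was female, although the labels do not give sex. Treatment and sex therefore cannot be told apart in any comparison of the groups.

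Only 3 hearts, vehicle hearts 4 and 5 and MEKi heart 2, carried most of the atrial transcripts. *Sln* was at 0.406, 5.58, 0, 112 and 73.0 FPKM in vehicle hearts 1 to 5 and at 0, 77.2, 0.672, 0.0848 and 0.386 FPKM in MEKi hearts 1 to 5. It was high in both groups, in 2 vehicle hearts and 1 MEKi heart, and the groups overlapped from end to end. The 2 hearts at 0 had no *Sln* fragment, which allows up to 0.160 FPKM in vehicle heart 3 and 0.133 FPKM in MEKi heart 1 (3 fragments, counting error only), whereas vehicle heart 4 had 2062.
*Myl7*, the atrial regulatory light chain, was at 11.0, 27.0, 2.03, 615 and 258 FPKM in vehicle hearts 1 to 5. In MEKi hearts 1 to 5 it was at 1.58, 520, 5.54, 1.71 and 2.16 FPKM. The highest heart was 389-fold above the lowest, and even the lowest had 16 fragments. *Myl4*, the atrial essential light chain, was at 1.50, 5.52, 0.349, 110 and 51.3 FPKM with vehicle. With MEKi it was at 0.239, 81.7, 0.426, 0.470 and 1.13 FPKM. Both light chains placed vehicle heart 4 first, MEKi heart 2 next, then vehicle hearts 5, 2 and 1, and both were lowest in MEKi heart 1. Antisense and other transcripts of the opposite strand overlap *Myl4*, the highest of them reaching 1.95 FPKM, and the strand setting of the count is not given in the sources used here, so the low values of *Myl4* are less certain than those of *Myl7*. No gene overlaps *Myl7* or *Sln*. The longest run of bases shared between *Myl7* and *Myl2* transcripts is 16, and between *Myl4* and *Myl3* it is 29.
Over the 12602 genes tested, whose mean FPKM was 0.5 or more, *Sln* had the largest SD of log2(FPKM + 0.1) across the hearts, 4.08. *Myl7* ranked 4 (SD 3.48) and *Myl4* ranked 5 (SD 3.32), where the median gene had an SD of 0.251.

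*Dkk3* and *Stard10* followed the same 3 hearts over a smaller range. *Dkk3*, which encodes a secreted glycoprotein of the Dickkopf family, was at 2.11, 3.18, 0.482, 23.1 and 8.02 FPKM in vehicle hearts 1 to 5 and at 2.00, 28.8, 1.78, 1.25 and 2.20 FPKM in MEKi hearts 1 to 5. Here MEKi heart 2 was the highest of all. *Stard10*, a lipid transfer protein, was at 24.6, 16.2, 10.9, 36.8 and 32.2 FPKM with vehicle and at 15.4, 32.1, 15.3, 14.0 and 15.5 FPKM with MEKi. Vehicle heart 1 came next after the 3 hearts, and the range over the hearts was 3.38-fold. *Dkk3* ranked 109 by SD (1.79) and *Stard10* ranked 1107 (SD 0.61).
*Nr2f2*, the orphan nuclear receptor COUP-TFII, which also marks venous endothelium, varied less than the other atrial members. Its spread was close to that of the median gene (SD 0.251). It was at 1.74, 2.02, 1.77, 2.12 and 2.40 FPKM with vehicle and at 1.60, 2.11, 2.00, 1.53 and 1.35 FPKM with MEKi. The same 3 hearts were again the highest, led by vehicle heart 5, but the range was 1.78-fold and its SD (0.24) ranked 6724 of 12602. A transcript of the opposite strand overlaps *Nr2f2* and reached at most 0.139 FPKM.

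**Figure D1:**
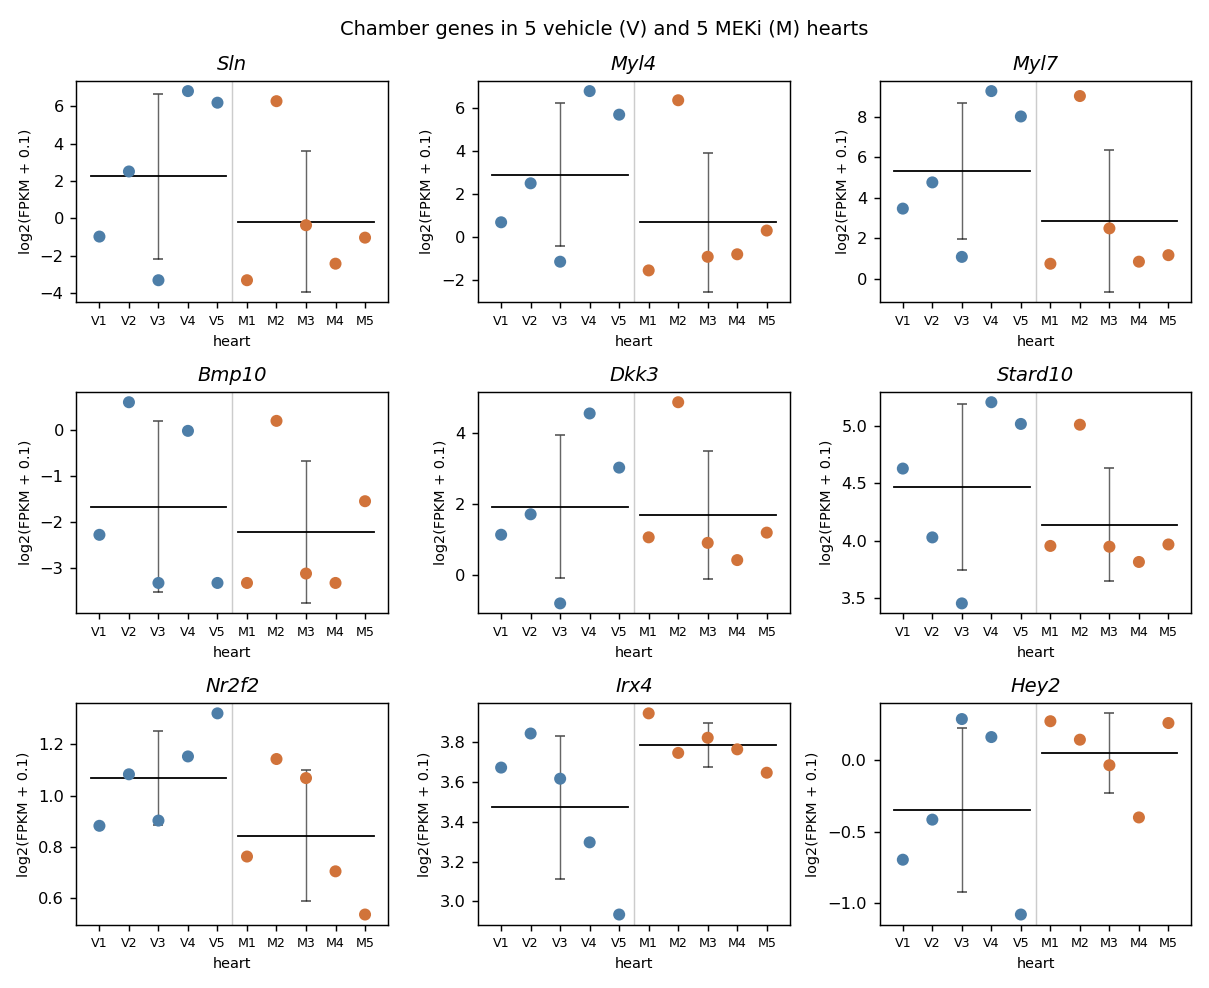
Level of each of the 9 chamber genes, as log2(FPKM + 0.1), in 5 vehicle hearts (V, blue) and 5 MEKi hearts (M, orange), 1 point per heart, with each panel on its own scale. Lines are group means and bars are SD (n = 5). *Sln*, *Myl4* and *Myl7* were high in V4, V5 and M2, *Bmp10* in V2, V4 and M2, and *Irx4* was lowest in V5.

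*Bmp10* did not follow the light chains in every heart. It encodes a secreted ligand of the TGF-beta superfamily that in the adult mouse comes chiefly from the right atrium. It was at 0.106, 1.41, 0, 0.880 and 0 FPKM in vehicle hearts 1 to 5 and at 0, 1.04, 0.0152, 0 and 0.241 FPKM in MEKi hearts 1 to 5. Vehicle heart 2 was highest, with 91 fragments, although its *Myl7* was 27.0 FPKM. Vehicle heart 5, with 258 FPKM of *Myl7*, had no *Bmp10* fragment, which allows up to 0.0459 FPKM, against 55 and 80 fragments in vehicle heart 4 and MEKi heart 2.
*Hamp*, which encodes the iron hormone hepcidin, was at 0.145, 1.02, 0, 11.4 and 0 FPKM with vehicle. In MEKi hearts 1 to 5 it was at 0, 11.9, 0.498, 0 and 0 FPKM. Like *Bmp10*, *Hamp* was high in vehicle heart 4 and MEKi heart 2 and had no fragment in vehicle heart 5.
Among the 7 hearts below the largest gap in *Sln*, in which *Sln* had at most 106 fragments, *Sln*, *Myl4* and *Myl7* also had positive coefficients with one another. Spearman's rho over these 7 hearts was 0.90 for *Sln* with *Myl7* (Pearson's r = 0.89), 0.77 for *Sln* with *Myl4* (r = 0.89) and 0.82 for *Myl4* with *Myl7* (r = 0.86). Without the 2 hearts farthest from the median of the first gene, r over 5 hearts was 0.65, 0.52 and 0.10. Over all 21 pairs of the 7 atrial genes, r in these 7 hearts ran from 0.07 (*Stard10* with *Nr2f2*) to 0.96 (*Myl4* with *Bmp10*). Without the 2 farthest hearts, the 21 pairs ran from -0.59 (*Myl4* with *Nr2f2*) to 0.92 (*Myl4* with *Bmp10*). These coefficients describe hearts from which the genes were chosen, rest on few fragments and have no p. No coefficient over all 10 hearts is given for these genes, since the hearts formed separate clusters.

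**Figure D2:**
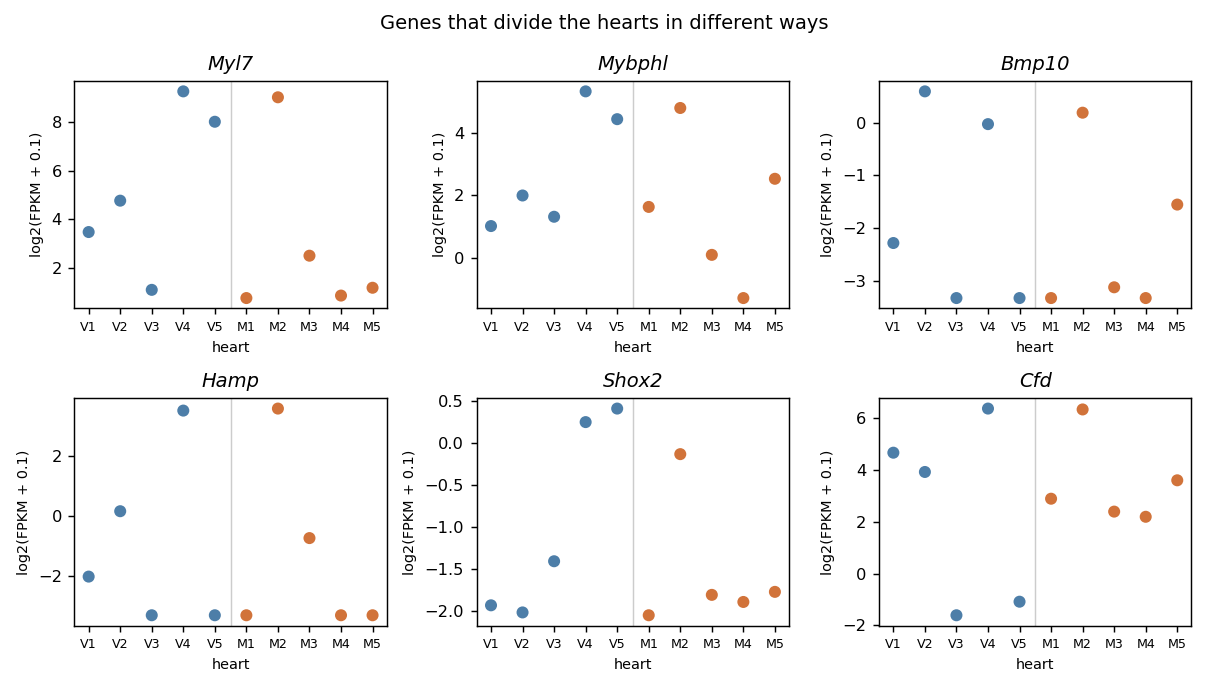
Level, as log2(FPKM + 0.1), of *Myl7*, *Mybphl*, *Bmp10*, *Hamp*, *Shox2* and *Cfd* in 5 vehicle hearts (V, blue) and 5 MEKi hearts (M, orange), 1 point per heart, with each panel on its own scale. V5 was high for *Myl7*, *Mybphl* and *Shox2*, at 0 FPKM for *Bmp10* and *Hamp*, and low for *Cfd* (0.373 FPKM), whereas V4 and M2 were high for all 6 genes.

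The ventricular genes were present in every heart. *Irx4*, an Iroquois homeobox factor, was at 12.7, 14.3, 12.2, 9.73 and 7.54 FPKM in vehicle hearts 1 to 5 and at 15.3, 13.3, 14.1, 13.5 and 12.4 FPKM in MEKi hearts 1 to 5. Its 2 lowest values came from vehicle hearts 5 and 4, which were rich in atrial transcripts, but MEKi heart 2 lay among the other MEKi hearts. *Hey2*, a repressor downstream of Notch, was at 0.518, 0.649, 1.12, 1.02 and 0.374 FPKM with vehicle and at 1.11, 1.00, 0.875, 0.657 and 1.09 FPKM with MEKi, from 25 to 87 fragments. It was lowest in vehicle heart 5 but among the higher values in vehicle heart 4, so the 2 ventricular genes did not order the hearts alike (Spearman's rho = 0.07 and Pearson's r = 0.48 over 10 hearts, and r = -0.0057 over 8 without the 2 farthest from the median of *Irx4*; a description with no p). For both genes the level in MEKi heart 2 was within the range of the other MEKi hearts.
Set beside its ventricular counterpart, each atrial transcript was the smaller one in all 10 hearts. *Myl7* made up 9.50, 5.18 and 7.47% of the summed FPKM of *Myl7* and *Myl2* in vehicle hearts 4 and 5 and MEKi heart 2, and from 0.0248 to 0.522% in the other hearts. *Myl4* made up 2.72, 1.43 and 1.83% of *Myl4* plus *Myl3* in these 3 hearts, and from 0.00607 to 0.147% elsewhere. *Sln* made up 17.3, 11.1 and 10.6% of *Sln* plus *Pln*, and from 0 to 0.845% elsewhere. FPKM divides by 1 length per gene, so these percentages depend on the lengths used. The lengths were 590 bases for *Myl7* and 1950 for *Myl2*, and 4637 for *Myl4* and 2044 for *Myl3*. For *Sln* and *Pln* they were 1318 and 2759 bases. The counterparts themselves varied little. *Myl2* ran from 4335 to 7789 FPKM, *Myl3* from 2761 to 4849 FPKM and *Pln* from 539 to 736 FPKM over the 10 hearts, and only *Pln* had its lowest value in vehicle heart 4.

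**Figure D3:**
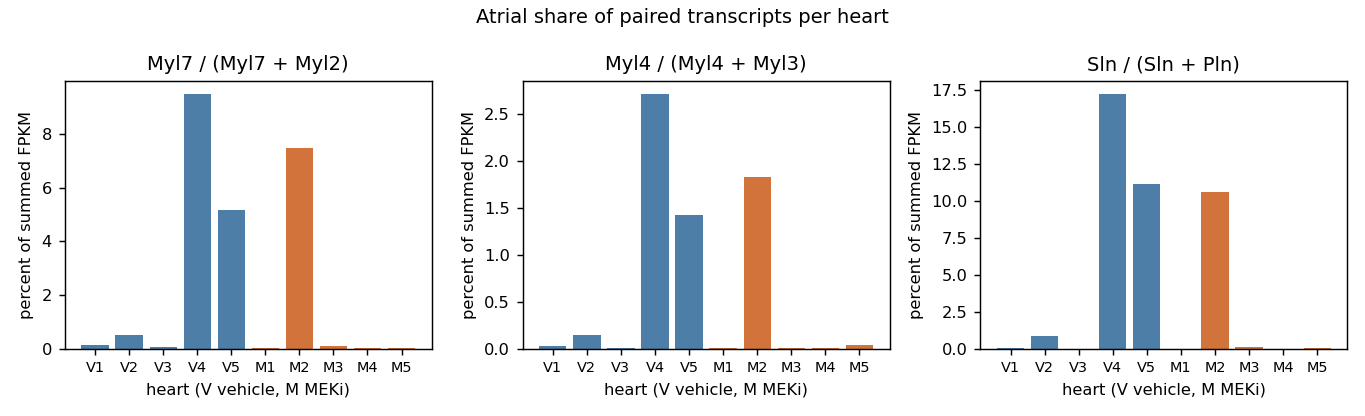
Percent of the summed FPKM of each atrial and ventricular pair that came from the atrial transcript, 1 bar per heart (V vehicle, blue, n = 5; M MEKi, orange, n = 5), with each panel on its own scale from 0. V4, V5 and M2 stand above the others in all 3 pairs, reaching 9.50% for *Myl7*, 2.72% for *Myl4* and 17.3% for *Sln*.

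MEKi and vehicle hearts, which also differed in sex by *Xist* and *Ddx3y*, were compared to ask whether chamber transcripts differed between the groups. No chamber gene passed the test, and for the atrial genes the intervals were too wide to exclude large differences. Of the 8 members that passed the filter, 0 had an adjusted p under 0.05 (limma on log2(FPKM + 0.1), Benjamini-Hochberg over all genes tested), where 0.0794% of the 12602 genes did (0.0238% higher and 0.0555% lower with MEKi). Without X, Y and mitochondrial genes, that background fell from 10 calls to 0 of 12178 genes by limma (924 at an unadjusted p under 0.05). Not all 10 calls were X, Y or mitochondrial genes. The autosomal ones among them lost their call when the adjustment ran over the remaining genes. At an unadjusted p under 0.05 there were 0 of 8 members, against 7.62% of all genes, and voom on the recovered fragments also gave 0 at either threshold. The unadjusted count was 2 of 8 without MEKi replicate 2 (*Myl7* and *Myl4*), and 1 of 8 (*Irx4*) without vehicle replicate 1, without vehicle replicate 2 or with a replicate block. Of the 8 members, 0 had groups without overlap, as 1.64% of all genes had.
*Myl7* was at 183 ± 264 FPKM in vehicle and 106 ± 231 FPKM in MEKi hearts (SD, n = 5 each), with a log2 difference (MEKi minus vehicle) of -2.46 (SE 1.79, 95% interval -6.38 to 1.45, adjusted p = 0.781 by limma). *Sln* had a log2 difference of -2.42 (SE 2.15, 95% interval -7.12 to 2.28, adjusted p = 0.820 by limma), from 38.3 ± 51.6 to 15.7 ± 34.4 FPKM. *Myl4* had one of -2.23 (SE 1.72, adjusted p = 0.802 by limma), from 33.7 ± 47.5 to 16.8 ± 36.3 FPKM. In each case the SD exceeded the mean of its group. Of the 3 high hearts, 2 were in the vehicle group. Vehicle hearts 4 and 5 and MEKi heart 2 were set apart by their levels of these same genes. Without them, which leaves 3 hearts against 4, the log2 fold change was -1.79 for *Myl7*, -1.42 for *Myl4* and -1.19 for *Sln*. That fit is a description and no test, since leaving out hearts by the values compared also narrows the spread (SE 0.790 for *Myl7*). None of the 3 genes passed under any alternative (adjusted p by limma from 0.539 to 0.953).
*Dkk3*, *Stard10* and *Nr2f2* had log2 fold changes of -0.23 (SE 1.00), -0.33 (SE 0.33) and -0.23 (SE 0.15), with adjusted p of 0.969, 0.849 and 0.757 by limma. For *Dkk3* the sign turned without the 3 hearts (0.21). *Stard10* then came to -0.12 and *Nr2f2* to -0.19. *Bmp10*, whose mean was under the filter, differed by -0.55 in mean log2(FPKM + 0.1) (two-sided exact permutation test over hearts, p = 0.683, where 0.00794 is the smallest possible).
*Irx4* averaged 11.3 ± 2.64 FPKM in vehicle and 13.7 ± 1.06 FPKM in MEKi hearts (SD, n = 5 each), a log2 difference of 0.31 (SE 0.15, 95% interval -0.02 to 0.65, adjusted p = 0.666 by limma). The value rested in part on vehicle hearts 4 and 5. It was 0.18 without vehicle replicate 5 alone and 0.08 without vehicle hearts 4 and 5 and MEKi heart 2 (adjusted p = 0.961 by limma, from 0.507 to 0.961 over its alternatives). *Hey2* went from 0.735 ± 0.320 to 0.947 ± 0.186 FPKM, a log2 difference of 0.39 (SE 0.27, adjusted p = 0.771 by limma), which did not exceed what hearts of 1 group differed by.

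**Figure D4:**
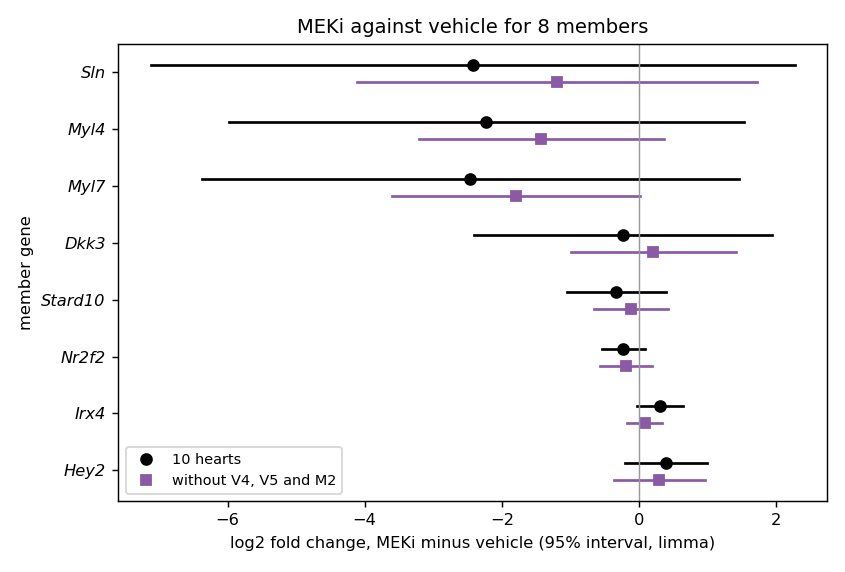
Log2 fold change, MEKi minus vehicle, of the 8 members that passed the filter, with 95% intervals from limma, over all 10 hearts (black circles, 5 against 5) and without V4, V5 and M2 (purple squares, 3 against 4). Every interval includes 0, and those of *Sln*, *Myl4* and *Myl7* span several log2 units. V4, V5 and M2 were left out by their levels of *Sln*, *Myl4* and *Myl7*, so the purple intervals are a description and no test.

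Other atrial genes differed in how far they followed the 3 hearts. Of 12 further atrial-enriched genes, 9 passed the filter and 0 were called between groups. Their fold change was above 0 for 3 and below 0 for 6, with a median of -0.02 on the log2 scale against 0.01 over all genes tested. *Mybphl*, an atrial myosin-binding protein, was at 39.8, 21.4 and 27.5 FPKM in vehicle hearts 4 and 5 and MEKi heart 2 and at 0.307 to 5.64 FPKM in the others. *Nppa*, the precursor of atrial natriuretic peptide, was at 1298 FPKM in vehicle heart 4, then at 454 FPKM in MEKi heart 1, whose *Myl7* was the lowest of all, and at 419 and 396 FPKM in vehicle heart 5 and MEKi heart 2. *Nppa* therefore did not set the 3 hearts apart. *Nr2f1* ran from 0.307 to 0.654 FPKM and *Chrm2*, the muscarinic receptor of heart muscle, from 7.61 to 21.0 FPKM, lowest in vehicle heart 5. *Pam*, a peptide-amidating enzyme abundant in atrial granules, was at 75.0, 53.3 and 62.8 FPKM in the 3 hearts and from 27.6 to 46.2 FPKM in the others. Without the 3 hearts the median of the list was 0.15, with 0 called.
Of 10 further ventricular-enriched genes, 9 passed the filter, and 0 were called. The fold change was above 0 for all 9, with a median of 0.13 against 0.01 over all genes tested, and without the 3 hearts it was above 0 for 6 and below 0 for 3. *Hand1* had no fragment in any heart. *Irx3*, an Iroquois homeobox gene like *Irx4*, was at 11.4, 12.4, 11.7, 10.9 and 6.82 FPKM with vehicle and at 15.8, 13.4, 15.3, 14.6 and 14.4 FPKM with MEKi. All 5 MEKi hearts were above all 5 vehicle hearts, which 1.64% of genes tested also showed, and *Irx3* did not pass the test (log2 difference 0.49, SE 0.15, adjusted p = 0.456 by limma). Without the 3 hearts its log2 fold change was 0.34.

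**Figure D5:**
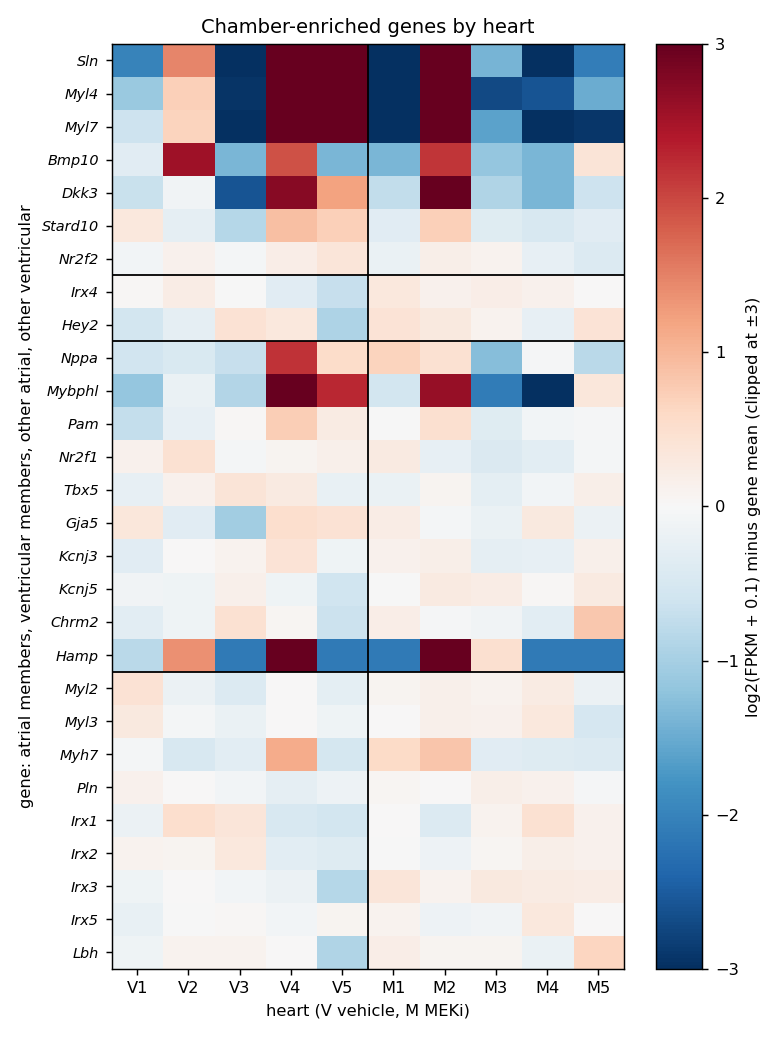
Log2(FPKM + 0.1) minus the mean of each gene over the 10 hearts, clipped at 3 in either direction, for the 9 members, 10 of the 12 other atrial-enriched genes and 9 of the 10 other ventricular-enriched genes, with vehicle hearts (V) on the left and MEKi hearts (M) on the right. *Sln*, *Myl4*, *Myl7* and *Mybphl* are high in V4, V5 and M2, *Hamp* in V4 and M2, and *Irx3*, *Irx4*, *Hey2* and *Lbh* are lowest in V5.

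Partners of the members were taken from lists grouped by role. The lists were chosen with earlier results of these data known, so their counts are a description. Of the SERCA genes and its small regulators, 4 were in the table under the names used and 3 passed the filter, with 0 called. *Atp2a2*, the cardiac pump that sarcolipin and phospholamban bind, was at 1314 FPKM in vehicle and 1416 FPKM in MEKi hearts (log2 difference 0.12, SE 0.14, adjusted p = 0.874 by limma). All 10 BMP10 receptors and immediate targets passed the filter, and 0 were called, with 7 fold changes below 0 and a median of -0.13. *Id1*, a target of BMP signaling, went from 52.4 to 37.0 FPKM (log2 difference -0.50, SE 0.18, adjusted p = 0.546 by limma). *Id1*, like the receptor subunit *Eng* at 136 FPKM, was highest in vehicle heart 5 (68.2 FPKM), which had no *Bmp10* fragment, as had 3 other hearts.
All 7 Notch and Hey genes passed the filter and had fold changes below 0, with a median of -0.28 and 0 called. Without the 3 hearts, 6 were below 0 and the median was -0.08. *Hey1*, the atrial relative of *Hey2*, was at 4.41, 3.51, 4.37, 4.77 and 6.25 FPKM with vehicle and at 2.61, 2.12, 2.86, 3.58 and 2.51 FPKM with MEKi. The groups met only where vehicle heart 2 and MEKi heart 4 crossed, and the log2 fold change was -0.74 (SE 0.16, adjusted p = 0.254 by limma), or -0.49 without the 3 hearts. *Hey1* and *Hey2* therefore had fold changes of opposite sign, and neither passed the test.

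The genes most like the atrial members were sought among 9798 other protein-coding genes that averaged 1 FPKM or more. Likeness was the root mean square difference, over the 10 hearts, between the centred log2 level of a gene and the centred mean log2 level of *Sln*, *Myl4* and *Myl7*, on which a gene that did not vary at all would score 3.42. *Mybphl* was nearest (1.96), followed by *Mlana*, a melanocyte protein (2.06), *Sbk3* (2.26), *Hamp* and *Hp*, haptoglobin (2.36). *Mlana* was at 4.38, 3.42 and 2.90 FPKM in vehicle hearts 4 and 5 and MEKi heart 2 and at 0 to 1.43 FPKM in the others. *Sbk3* was at 7.75, 9.16 and 7.97 FPKM in these 3 hearts and at 0.352 to 2.17 FPKM elsewhere. The next 5 were *Adig*, *Acta1*, *Cd79a*, *Hba-a1* and *Hbb-bt*, which hold an adipocyte gene, a skeletal actin, a B-cell gene and 2 haemoglobin chains.
After scaling each gene to an SD of 1, the gene nearest to *Irx4* was *Slc25a11*, a mitochondrial carrier (0.27), and *Irx3* ranked 5 (0.39). *Arih2* was nearest to *Hey2* (0.27) and *Dhx57* to *Nr2f2* (0.25).
Markers of other tissue moved with some of these hearts, and their part in the results was not tested. The summed level of the 4 adipocyte markers was 93.8 and 89.4 FPKM in vehicle heart 4 and MEKi heart 2 and from 0.365 to 28.1 FPKM in the others, most of it from *Cfd*, and was 0.432 FPKM in vehicle heart 5. *Hba-a1*, a haemoglobin alpha chain, was at 7014 and 9642 FPKM in vehicle hearts 4 and 5, at 1715 FPKM in MEKi heart 2 and from 905 to 2151 FPKM in the remaining hearts, and since it has a near-identical copy its own level is uncertain. *Shox2*, a sinoatrial node gene noticed after its values were seen, was at 1.08, 1.22 and 0.810 FPKM in the 3 hearts and at most 0.276 FPKM in the others, while 3 of the other node markers, *Hcn4*, *Tbx3* and *Tbx18*, showed no such division. The 7 node markers summed to 3.30 to 4.52 FPKM with vehicle and 2.17 to 4.04 FPKM with MEKi. Among them, *Isl1* was at 0 in all hearts but vehicle heart 4, where it had only 2 fragments (0.0363 FPKM). Of the 8 skeletal muscle markers, *Myh2*, *Myh4* and *Tnnc2* had no fragment in any heart, and the list summed to 0.902 to 3.01 FPKM with vehicle and 1.35 to 3.16 FPKM with MEKi, while *Sln* and *Myl4*, which skeletal muscle can also express, varied as above. Lung epithelial markers summed to at most 0.267 FPKM. Venous and lymphatic endothelial markers (50.3 to 77.1 FPKM with vehicle, 54.0 to 62.8 FPKM with MEKi), vascular endothelial markers (82.3 to 131 and 79.8 to 98.9 FPKM) and fibroblast markers (115 to 171 and 110 to 150 FPKM) were highest in vehicle heart 5, and 0 genes of these lists were called.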

How the data were processed

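Poly(A)-selected RNA of 10 hearts was sequenced, and the authors deposited FPKM per gene and heart with gene lengths and coordinates, which match GENCODE M21 (GRCm38) for 98.3% of 54409 shared IDs. Per the labels' processing notes, the build was mm10 and the tools were fastp, STAR 2.5 and HTSeq 0.6.1. Whole fragments recovered from FPKM and length served for depth, for the 3-fragment limit of a count of 0 (95% intervals are limma's) and for voom. The library size implied by FPKM was not the sum of these fragments. It was 1.42182e+07 against 15371692 fragments in vehicle heart 3, and 1.44166e+07 against 13647167 in vehicle heart 2. Groups and replicate numbers came from the labels, and p-values measure the spread between these hearts. The members, gene lists, likeness rule and alternatives were chosen with earlier results of these data known. Genes named are the 9 members, up to 4 per list by mean level, genes whose role pairs with a member, and the nearest by likeness; others (*Shox2*, *Irx3*, *Isl1*, *Hand1*) were named after their values were seen. Values were log2(FPKM + 0.1), tested two-sided with limma 3.58.1 (eBayes with a trend) in R 4.3.3 where a gene's mean reached 0.5 FPKM, with Benjamini-Hochberg adjustment at 0.05; *Bmp10* was tested by exact permutation. The fit was tested on simulated data. Summaries used Python 3.11.15, numpy 2.4.6, pandas 2.3.3 and scipy 1.17.1. *Strit1* was not found under that name. Same-numbered hearts of the groups did not deviate together (correlations from -0.15 to -0.02), so the numbers do not pair them. A single result is not reported here.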

Additional observations from a re-analysis of the deposited data

Results flagged for a closer look

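In 50 groups of 5 hearts, each a gene in vehicle or MEKi hearts, hearts were picked out where the gap to the nearest other heart was past Dixon's 95% critical value. That limit is passed by chance in about 1 in 20 groups, but only for genes not chosen by their values. The members and several of the other genes were chosen with these values known, so what follows is a description and no test.
MEKi heart 2 stood above the other MEKi hearts for 11 genes. Among the members these were *Sln* (77.2 FPKM, others at most 0.672), *Myl4* (81.7, others at most 1.13), *Myl7* (520, others at most 5.54), *Bmp10* (1.04, others at most 0.241), *Dkk3* (28.8, others at most 2.20) and *Stard10* (32.1, others at most 15.5). The other genes were *Mybphl* (27.5, others at most 5.64), *Shox2* (0.810, others at most 0.192), *Cfd* (81.0, others at most 12.1) and *Sbk3* (7.97, others at most 2.17). *Hamp* was far above the rest in MEKi heart 2 (11.9 FPKM, others at most 0.498) and in vehicle heart 4 (11.4 FPKM, others at most 1.02). *Nppa* was at 1298 FPKM in vehicle heart 4, with the other vehicle hearts at 178 to 419 FPKM. *Irx3* was at 6.82 FPKM in vehicle heart 5, with the others at 10.9 to 12.4 FPKM. In the vehicle group *Sln*, *Myl4* and *Myl7* had 2 high hearts, so neither stood alone.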

How the results depend on the processing

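The number of members called stayed at 0 under each of 22 alternatives (0 of 6 members with a mean of at least 5 FPKM, 0 of 9 with no filter, where *Bmp10* entered, and 0 of 8 in the others), among them pseudocounts of 1 and 0.01, no filter, a TPM scale (which moved the median of all genes from 0.01 to 0.09), quantile normalization, robust eBayes, voom, protein-coding genes only and no X, Y or mitochondrial genes. *Sln*, *Myl4*, *Myl7*, *Stard10*, *Nr2f2*, *Irx4* and *Hey2* kept their sign in all of theirs. *Dkk3* turned from -0.23 to 0.21 without vehicle hearts 4 and 5 and MEKi heart 2. With 1 heart left out, its log2 fold change ran from -1.02 to 0.42, positive without vehicle replicate 4 (0.42), vehicle replicate 5 (0.04) or MEKi replicate 4 (0.08). With 1 heart left out, the log2 fold change ran from -4.00 to -1.47 for *Myl7*, from -3.65 to -1.25 for *Myl4* and from -4.03 to -1.28 for *Sln*, the most negative without MEKi replicate 2. The mean *Myl7* share in MEKi hearts was 1.53%, and 0.0454% without MEKi replicate 2. For *Myl4* it was 0.380%, and 0.0166% without MEKi replicate 2. In the vehicle group these shares were 3.08 and 0.867%, and 1.47 and 0.404% without vehicle replicate 4. With the replicate block 0 of 8 members were called, and 4 of 12602 genes against 10 without it. The block moved no member across the threshold, and no heart correlated best with its own number. At 5 hearts a group, differences in *Sln*, *Myl4* and *Myl7* of several log2 units lay within the intervals.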

Other observations

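Transcripts of the epicardium and mesothelium, the cell layer that covers both chambers, also varied widely. *Msln*, *Upk3b*, *Upk1b*, *Lrrn4* and *Wt1* passed the filter, all with fold changes below 0 (median -1.38 on the log2 scale), and 0 were called (lowest adjusted p = 0.656 by limma). *Upk3b*, a uroplakin, was at 2.54, 6.27, 3.31, 10.3 and 7.12 FPKM with vehicle and at 6.51, 5.13, 0.0579, 1.14 and 1.05 FPKM with MEKi. MEKi heart 1, which had the lowest *Myl7* (1.58 FPKM), was the highest MEKi heart for *Upk3b*. The summed level of the 5 genes was highest in vehicle hearts 4, 5 and 2 (22.0, 16.6 and 14.9 FPKM), which also led the vehicle group for *Myl7*, while among MEKi hearts it was highest in MEKi heart 1 (15.6 FPKM) and then MEKi heart 2 (12.9 FPKM). Without vehicle hearts 4 and 5 and MEKi heart 2, the median of the 5 genes was -1.35.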
